A study of Mus musculus with 12 samples.

Results

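The genes described here are the replication-dependent histone genes of the mouse, taken as all genes whose symbol in the annotation starts with Hist1h, Hist2h, Hist3h or Hist4h and that had at least 10 counts in at least 3 of 12 libraries. The annotation holds 70 such symbols, 68 had an identifier in the count files, and 58 met the rule, out of 49585 genes in the files. Of these 58 members, 5 encode H1, 15 H2A, 14 H2B, 11 H3 and 13 H4, and 2 (*Hist3h2bb-ps* and *Hist1h2al*) are annotated as pseudogenes. Chromosome 13 holds 47 members, chromosome 3 holds 7, chromosome 11 holds 3 and chromosome 6 holds 1. Just inside the rule were *Hist1h2aa*, with 10 counts in 3 libraries, and *Hist1h2al*, with 10 counts in 5. Just outside were *Hist1h2aj*, *Hist2h2aa1* and *Hist1h1t*, whose highest counts in any library were 8, 6 and 5.

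The libraries come from CD4 T cells of mice on a C57B6/J background. The study calls its mice female in describing another experiment, on RNA bound by the protein LARP1. All mice carried *Rnmt* alleles with loxP sites around exon 3 (Rnmt fl/fl). The *Rnmt* cKO mice also carried a Cre transgene under the *Cd4* promoter, which is active from the double positive stage of thymocytes, and the control mice had no Cre, so that effects of Cre and of the deletion cannot be told apart. *Rnmt* encodes the methyltransferase that completes the mRNA cap. Naive CD4 T cells from lymph nodes were activated for 20 h on plates coated with anti-CD3 (5 ug/ml) and anti-CD28 (1 ug/ml), and received 0.1 mg/ml cycloheximide for 1 min before lysis. Total cytoplasmic RNA and ribosome protected fragments (RPF) were sequenced from 3 control and 3 *Rnmt* cKO samples, which gave 6 libraries of each kind. Between 15079703 and 22629563 reads were counted on genes in the total RNA libraries and between 4123271 and 10661356 in the RPF libraries.

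Replication-dependent histone genes supply the core histones H2A, H2B, H3 and H4, and the linker histone H1, while DNA is being copied. Their mRNAs have a 5′ cap but end in a conserved stem-loop in place of a poly(A) tail. The stem-loop is bound by SLBP, which acts in the processing, export, translation and decay of these mRNAs. The study describes the cytoplasmic RNA of these cells as ribosome depleted and names no selection by poly(A) tail for it.

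The stem-loop was found in the annotated transcripts of 37 members, as a hairpin of 6 paired bases and a loop of 4 with up to 2 mismatches to its consensus. Among members with at least 60 bases annotated after the stop codon, 36 of 39 (92.3%) had it, against 15 of 20638 other protein-coding genes (0.0727%) in the first 100 bases after the stop codon. It began 21 to 54 bases beyond the stop codon. The 3 members without a match were *Hist1h2bc*, *Hist1h2bp* and *Hist2h2be*, and 16 members had too short an annotated 3′ part to be called. In all 37 members the 6 base pairs of the stem were complete, and members differed in which bases made the pairs and in the loop. The sites below show the feature that sets these mRNAs apart, with the hairpin in capitals and 5 bases on each side, on build GRCm38 and 5′ to 3′ on the strand of the gene. The hairpin of *Hist1h1e* was shared by 18 members of H1, H2A, H2B and H3, that of *Hist1h4d* by 7 members, all of H4, and that of *Hist1h3e* by 5.
Hist1h1e, chr13:23621777-23621802, minus strand: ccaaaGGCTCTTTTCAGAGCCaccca
Hist1h4d, chr13:23581945-23581970, plus strand: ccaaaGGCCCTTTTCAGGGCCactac
Hist1h3e, chr13:23561898-23561923, minus strand: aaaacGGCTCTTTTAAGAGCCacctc
Hist1h4i, chr13:22040961-22040986, minus strand: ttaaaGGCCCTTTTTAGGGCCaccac

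The members within a core histone family were nearly alike as proteins, whereas those of H1 were less so. All 13 H4 genes encode a single protein of 103 residues, and the 11 H3 genes encode 2 proteins with 99.3% identity. The 14 translated H2A genes encode 8 proteins and the 13 translated H2B genes 8. The 5 H1 genes encode 5 proteins with 64.1 to 86.4% identity. The likeness of members bears on the counts, since reads that aligned equally well in several places were not counted. Of all stretches of 30 bases in the coding sequence, the share that occurs in no other annotated gene had a median of 15.7% over 56 members, from 0% in 7 members to 99.5% in *Hist1h1a*. Levels of single members are therefore uncertain. A fold change between genotypes sets the same stretches side by side, but it is uncertain as well for members with few or no particular stretches.

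*Rnmt* was examined first as a check of the labels. It had 95.3, 93.9 and 94.1 CPM in control and 29.3, 32.3 and 30.3 in *Rnmt* cKO in total RNA (CPM, the count scaled to library size, with TMM normalization). In RPF it had 104, 87.7 and 98.7 CPM in control and 10.5, 10.3 and 9.57 in *Rnmt* cKO. The genotypes did not overlap in either kind and differed in the direction of the labels. The CD4 T cell markers *Cd4*, *Cd3e* and *Cd28* were at 112 CPM or more in every total RNA library.

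Histone genes took a larger share of the counts in *Rnmt* cKO than in control. In total RNA the summed counts of the 58 members were 0.563, 0.759 and 0.515% of protein-coding counts in control and 1.15, 0.858 and 1.04% in *Rnmt* cKO, with means of 0.612 ± 0.129% and 1.01 ± 0.145% (SD, n = 3). In RPF the shares were 0.697, 1.11 and 0.704% in control and 1.51, 1.26 and 1.27% in *Rnmt* cKO, with means of 0.838 ± 0.239% and 1.35 ± 0.144% (SD, n = 3). Every *Rnmt* cKO library stood above every control library in both kinds. Control replicate 2 was the highest control in both, and the log2 ratio of the mean shares, 0.73 in total RNA and 0.68 in RPF, was 0.91 and 0.94 without it. A sum over the members was not tested. In bulk libraries, more cells with histone mRNA and more histone mRNA per cell cannot be told apart, and all values are relative to the RNA sequenced. The study reports less mRNA per cell in activated *Rnmt* cKO cells and states that RNA sequencing overestimates rises for this reason. The values here are thus not amounts per cell.

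All 5 families had a larger mean share in *Rnmt* cKO in both kinds. H1 took the most counts in total RNA, with 0.189 ± 0.0386% in control and 0.354 ± 0.0491% in *Rnmt* cKO (SD, n = 3). H4 took the most in RPF of *Rnmt* cKO, with 0.252 ± 0.0570% in control and 0.417 ± 0.0533% in *Rnmt* cKO (SD, n = 3). For H1 in RPF the shares were 0.205, 0.390 and 0.226% in control and 0.397, 0.344 and 0.363% in *Rnmt* cKO. Control replicate 2 thus lay among the *Rnmt* cKO libraries for H1 in RPF, and control replicate 2 (0.203%) was above *Rnmt* cKO replicate 2 (0.190%) for H4 in total RNA. The genotypes did not overlap in the other families of either kind or in the sum.

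Total RNA was then compared gene by gene. Of the 56 members tested, 45 rose in *Rnmt* cKO, 1 fell and 10 did not pass the threshold (edgeR quasi-likelihood test, adjusted over 11519 genes). Among all genes tested 26.3% rose and 28.0% fell. The median log2 fold change of the members was 0.80, beside -0.0037 for all genes. All 5 H1 and all 11 H3 genes rose, as did 11 of 13 H2A, 9 of 14 H2B and 9 of 13 H4 genes. The H3 gene *Hist2h3c2* is counted among these rises although it passed the filter on low counts only through *Rnmt* cKO, with 0.58, 0.69 and 0.70 CPM in control and 1.83, 1.44 and 1.47 in *Rnmt* cKO, so that its call supports nothing. Without it 44 of 55 members rose, 10 of 10 in H3, with a median of 0.79 over the members. The median was lowest for H4 (0.52). It was highest for H3 (1.06) with *Hist2h3c2* counted, whereas without that gene H3 (0.94) was just below H2A (0.96). With each library left out in turn, 34 to 51 members rose and 1 fell, and the most were called without control replicate 2. The share of all genes in these fits is not given here.

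**Figure D1:**
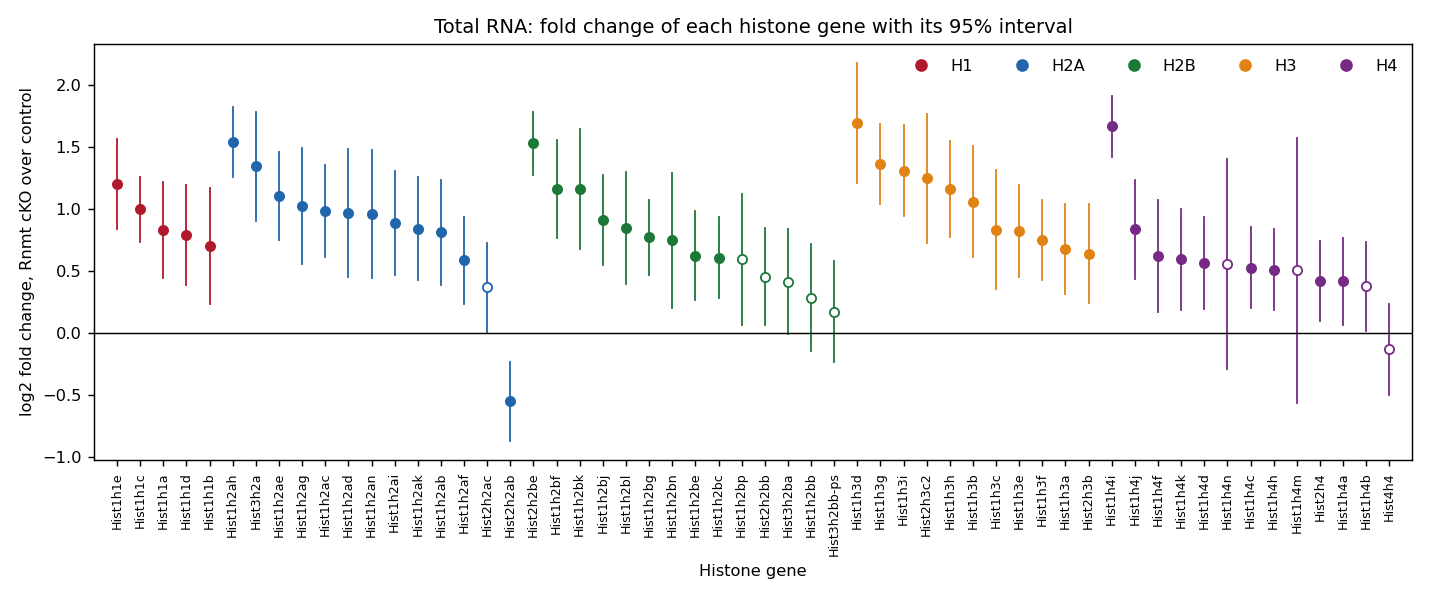
Log2 fold change of *Rnmt* cKO over control in total RNA (y axis) for each of the 56 members tested, grouped by family along the x axis. Bars are 95% intervals and filled points passed an adjusted p of 0.05; the points of *Hist2h2ab* (-0.55) and *Hist4h4* (-0.14) lie below 0 and the others above it.

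The largest rises in total RNA were those of *Hist1h3d*, *Hist1h4i* and *Hist1h2ah*, which encode H3, H4 and H2A. *Hist1h3d* had 5.14, 6.29 and 7.48 CPM in control and 26.6, 18.2 and 16.7 in *Rnmt* cKO (log2 fold change 1.69, SE 0.21, adjusted p = 0.00035, edgeR). *Hist1h4i* had 14, 13.4 and 11.4 CPM in control and 42.8, 37.1 and 43.3 in *Rnmt* cKO (log2 fold change 1.66, SE 0.11, adjusted p = 1.9e-05, edgeR). *Hist1h2ah* had 12.6, 14.5 and 12 CPM in control and 44.1, 34.3 and 35.3 in *Rnmt* cKO (log2 fold change 1.54, SE 0.12, adjusted p = 4.8e-05, edgeR). The genotypes did not overlap in any of the 3.

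The members with the most counts in each family had smaller fold changes than these 3. They were ranked over both genotypes, which favours genes that rose, and in control alone *Hist4h4*, which did not pass the threshold, was above *Hist1h4f* and *Hist1h4c* with means of 172, 157 and 137 CPM. Among the linker histone genes, *Hist1h1c* had 344, 411 and 333 CPM in control and 789, 622 and 757 in *Rnmt* cKO (log2 fold change 1.00, SE 0.11, adjusted p = 0.00025, edgeR). *Hist1h1d* had 311, 438 and 264 CPM in control and 628, 514 and 605 in *Rnmt* cKO (log2 fold change 0.79, SE 0.18, adjusted p = 0.0062, edgeR). Neither overlapped between genotypes. For H3 the leading genes were *Hist1h3a*, *Hist1h3c* and *Hist1h3e*, with log2 fold changes of 0.68, 0.83 and 0.82. *Hist1h3a* had 185, 258 and 177 CPM in control and 362, 279.7 and 349 in *Rnmt* cKO, without overlap. For H4 the leading genes over all 6 libraries were *Hist1h4d*, *Hist1h4f* and *Hist1h4c*, with log2 fold changes of 0.56, 0.62 and 0.52 and adjusted p of 0.018, 0.028 and 0.015 (edgeR). *Hist1h4f* had 138, 208 and 125 CPM in control and 278, 200.3 and 247 in *Rnmt* cKO, so that its second *Rnmt* cKO library lay below the highest control. None of these 3 H4 calls was kept without control replicate 1, where the log2 fold changes were 0.51, 0.53 and 0.49 and the adjusted p 0.070, 0.0997 and 0.0558 (edgeR). Those of *Hist1h4d* and *Hist1h4f* were also lost without control replicate 3 (adjusted p = 0.056 and 0.081) and without *Rnmt* cKO replicate 1 (0.056 and 0.086), and that of *Hist1h4f* with the replicate block (0.059).

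Abundant H2A and H2B genes were less uniform. *Hist1h2ak* and *Hist1h2ab* rose, with log2 fold changes of 0.84 and 0.81, whereas *Hist2h2ac* had 109, 144 and 101 CPM in control and 176, 126 and 153 in *Rnmt* cKO (log2 fold change 0.36, SE 0.15, adjusted p = 0.077, edgeR). *Hist1h2be* rose by 0.62 on the log2 scale. *Hist2h2bb* had a log2 fold change of 0.45 (95% interval 0.06 to 0.84) and *Hist1h2bb* one of 0.28 (95% interval -0.15 to 0.71), and neither passed the threshold. *Hist1h2bb* had 116, 168 and 106 CPM in control and 189.7, 132 and 153 in *Rnmt* cKO, and the genotypes overlapped.

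*Hist2h2ab*, an H2A gene of chromosome 3, was the member that fell in total RNA. It had 9.85, 11.5 and 11 CPM in control and 7.79, 6.08 and 8.15 in *Rnmt* cKO (log2 fold change -0.55, SE 0.14, adjusted p = 0.01, edgeR). All *Rnmt* cKO libraries were below all control libraries, in RPF as well, where it had 23, 31.1 and 20.9 CPM in control and 19.6, 15.7 and 18.7 in *Rnmt* cKO (log2 fold change -0.47, SE 0.17, adjusted p = 0.068, edgeR). *Hist4h4*, the member of chromosome 6, encodes the same H4 protein as the other H4 genes and had 165, 214 and 136 CPM in control and 157, 137 and 174 in *Rnmt* cKO, with overlap (log2 fold change -0.14, SE 0.16, adjusted p = 0.49, edgeR).

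RPF rose for most members as well. Of the 56 members tested, 37 rose, 2 fell and 17 did not pass the threshold, while 14.1% of all 11428 genes tested rose and 15.7% fell. The median log2 fold change was 0.81, beside 0.0080 for all genes. By family, 2 of 5 H1, 9 of 14 H2A, 9 of 14 H2B, 9 of 10 H3 and 8 of 13 H4 genes rose. The 2 falls were *Hist1h1e* of H1 and the pseudogene *Hist3h2bb-ps*. With each library left out in turn 30 to 44 members rose, again the most without control replicate 2 and without the share of all genes beside them. Of the members tested in both kinds, 35 of 54 rose in both, in libraries that share their sample numbers, beside 10.7% of 10668 genes.

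*Hist1h2ag*, *Hist1h2ah* and *Hist1h4i* rose the most in RPF. *Hist1h2ag*, an H2A gene, had 15.6, 18.6 and 17.7 CPM in control and 78.8, 50.5 and 56.5 in *Rnmt* cKO (log2 fold change 1.84, SE 0.17, adjusted p = 0.00026, edgeR). *Hist1h2ah* had 12.6, 17.3 and 11 CPM in control and 57.1, 39.1 and 35.6 in *Rnmt* cKO (log2 fold change 1.71, SE 0.22, adjusted p = 0.0011, edgeR). *Hist1h4i* had 5.25, 6.47 and 5.26 CPM in control and 19.6, 12.8 and 17.4 in *Rnmt* cKO (log2 fold change 1.55, SE 0.21, adjusted p = 0.0013, edgeR). The genotypes did not overlap in any of these. No stretch of 30 bases of the coding sequence is particular to *Hist1h2ag*, so that its RPF values are uncertain.

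Members were also grouped by position. On chromosome 13, which holds the Hist1 cluster, 37 of 47 members tested rose and 1 fell in RPF. On chromosome 3, with the Hist2 cluster, 0 of 6 passed the threshold in edgeR, with 2 rising and 1 falling at an unadjusted p under 0.05, and DESeq2 called 2 rises. Of all genes 14.1% rose and 15.7% fell in RPF, and the 0 of 6 on chromosome 3 is near these shares. In total RNA 40 of 45 members of chromosome 13 rose, and of chromosome 3, without *Hist2h3c2*, 3 of 6 rose and 1 fell, beside 26.3% and 28.0% of all genes. The difference between the chromosomes was not tested.

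*Hist1h1e*, a gene for linker histone H1 (ENSMUSG00000051627, chr13:23620629-23622558, minus strand, GRCm38), was the member that rose in total RNA and fell in RPF. In total RNA it had 277, 329.8 and 229 CPM in control and 708, 520.2 and 690.0 in *Rnmt* cKO (log2 fold change 1.20, SE 0.16, adjusted p = 0.00047, edgeR). In RPF it had 377, 777 and 439 CPM in control and 339.9, 272 and 310.0 in *Rnmt* cKO (log2 fold change -0.79, SE 0.24, adjusted p = 0.04, edgeR). All *Rnmt* cKO libraries were thus above all controls in total RNA and below all controls in RPF. The log2 ratio of RPF to total RNA was 0.44, 1.23 and 0.94 in control and -1.06, -0.93 and -1.15 in *Rnmt* cKO. Of its coding stretches of 30 bases, 69.1% occur in no other annotated gene. The RPF call is near the threshold and was lost when any *Rnmt* cKO library was left out (adjusted p = 0.072, 0.12 and 0.072), with the replicate block (0.058) and in DESeq2 (0.088), whereas the log2 fold change stayed between -0.86 and -0.70 in these.

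The other linker histone genes rose in total RNA and had log2 fold changes above 0 in RPF. *Hist1h1c* had 616, 1186 and 704 CPM in control and 1227, 1205 and 1327 in *Rnmt* cKO in RPF (log2 fold change 0.59, SE 0.21, adjusted p = 0.072, edgeR). *Hist1h1d* had 367, 699.8 and 405 CPM in control and 746, 626 and 599 in *Rnmt* cKO, with overlap (log2 fold change 0.42, SE 0.22, adjusted p = 0.18, edgeR). *Hist1h1a* and *Hist1h1b* rose in RPF, with log2 fold changes of 0.72 and 0.76. DESeq2 called 1 of these 5 genes up in RPF, against 2 in edgeR.

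Translational efficiency (TE), the ratio of RPF to total RNA, was tested by whether the genotype difference was the same in both kinds, in a fit over all 12 libraries. Of the 54 members tested, 1 fell, *Hist1h1e*, with a log2 change of -1.99 (95% interval -2.69 to -1.28) (adjusted p = 0.0018, edgeR), and 0 rose. At an unadjusted p under 0.05, 4 fell and 3 rose, and DESeq2 called 2 falls and 1 rise. Among all 10668 genes 6.55% fell and 3.22% rose in edgeR. The median log2 change in TE of the members was 0.04, beside 0.03 for all genes, and 44 of the 54 had a change of less than 0.5 in size. *Hist1h1e* was called in every alternative run, with log2 changes from -2.18 to -1.75.

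Libraries of total RNA and RPF with the same number deviated together, and with the number taken as the animal and fitted as a block 2 members fell and 3 rose. *Hist1h1e* then had a log2 change of -1.92 (SE 0.17, adjusted p = 9.8e-05, edgeR) and *Hist2h3b*, an H3 gene, one of -1.04 (SE 0.22, adjusted p = 0.013). Those that rose were *Hist1h2ag* (0.76), *Hist1h4c* (0.59) and *Hist4h4* (0.55), with adjusted p of 0.012, 0.022 and 0.011 in edgeR. The 6.55% of all genes that fell and 3.22% that rose in TE are from the fit without this block. The share of all genes with the block is not given here, so that these counts cannot be set beside it. The log2 ratio of RPF to total RNA of *Hist2h3b* was 0.88, 1.75 and 1.43 in control and -0.06, 0.58 and 0.49 in *Rnmt* cKO. For *Hist4h4* it was 0.19, 0.35 and 0.50 in control and 1.03, 0.94 and 0.70 in *Rnmt* cKO. In neither gene did the ratios of the genotypes overlap. Only 5.50% of the coding stretches of *Hist2h3b* are particular to it, against 98.9% for *Hist4h4*.

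**Figure D2:**
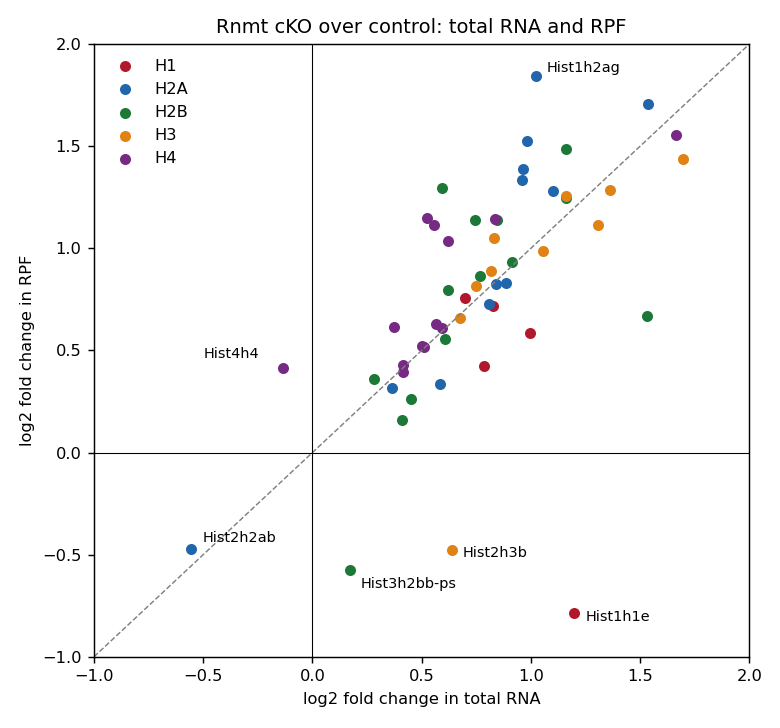
Log2 fold change of *Rnmt* cKO over control in total RNA (x axis) and RPF (y axis) for the 54 members tested in both, coloured by family; the dashed line marks equal change. In 49 members both values are above 0, and *Hist1h1e* lies farthest from the line (1.20 in total RNA and -0.79 in RPF).

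In *Hist3h2bb-ps*, a pseudogene of H2B, total RNA had a log2 fold change of 0.17 (95% interval -0.24 to 0.58), and in RPF it had 17.3, 19.7 and 19.3 CPM in control and 13.2, 13.7 and 10.3 in *Rnmt* cKO (log2 fold change -0.58, SE 0.14, adjusted p = 0.019, edgeR). The RPF call was lost without control replicate 2 (-0.55, adjusted p = 0.052) and control replicate 3 (-0.56, adjusted p = 0.054, edgeR). *Hist2h2be*, an H2B gene without a stem-loop match, rose by 1.53 on the log2 scale in total RNA and had 0.67 (95% interval -0.05 to 1.38) in RPF. Its total RNA was 4.66, 4.70 and 5.11 CPM in control and 13.9, 12.9 and 15 in *Rnmt* cKO, without overlap. The change in TE did not pass the threshold for either in edgeR (adjusted p = 0.07 and 0.071). That of *Hist3h2bb-ps* passed it in DESeq2 (-0.75, adjusted p = 0.046) and without *Rnmt* cKO replicate 2 (-0.95, adjusted p = 0.044, edgeR), and that of *Hist2h2be* without *Rnmt* cKO replicate 1 (-1.16, adjusted p = 0.043, edgeR).

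Some members had counts that limited what can be read from them. *Hist3h2a* rose in total RNA (log2 fold change 1.34). It and *Hist2h3c2* were listed with 0 counts in RPF of all control libraries, and none of their coding stretches is particular to them. *Hist1h4m* had 27.2, 14.8 and 19.9 CPM in control and 10.8, 49.3 and 26.9 in *Rnmt* cKO in total RNA and 94, 16.7 and 34.6 CPM in control and 23, 131 and 55 in *Rnmt* cKO in RPF. Its high and low libraries were not those of a genotype, and *Rnmt* cKO replicate 2 was high and control replicate 2 low in both kinds. None of its coding stretches is particular to it either. Its log2 fold change in RPF was 0.52 (95% interval -1.05 to 2.09). *Hist1h4n* has no particular coding stretch either. In total RNA it had 33.6, 68.7 and 32.3 CPM in control and 96.1, 40.3 and 62.2 in *Rnmt* cKO. Within each genotype its highest library was the lowest of *Hist1h4m* in total RNA. In RPF this held in *Rnmt* cKO but not in control. How reads were split between these genes was not tested.

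The length of the annotated transcript beyond the stem-loop is a feature that the choice of members did not use. Of the 37 members with a stem-loop, 16 have more than 200 bases annotated beyond it. Without *Hist2h3c2*, 14 of 15 of these rose in total RNA, with a median log2 fold change of 0.82, and 15 of the 21 with up to 200 bases rose, with a median of 0.77. In RPF 9 of 14 rose and 1 fell, and 15 of 21 rose, with medians of 0.81 and 0.93. Among all genes 26.3% rose in total RNA and 14.1% in RPF. The difference between the classes was not tested. *Hist1h1d* has the longest such stretch, with 4884 bases, and *Hist1h4m* the shortest, with 3.

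Per length, the levels of RPF differed widely between members. As CPM per kilobase of coding sequence, RPF in control was 1656 for *Hist1h4d*, 1307 for *Hist1h1c* and 1254 for *Hist2h4*, the highest of 56 members. *Hist1h4i*, among the largest rises, was at 18.1 in control and 53.2 in *Rnmt* cKO. Across the 56 genes the level in control followed the share of particular coding stretches (Spearman's rho 0.55, a description over genes of the same libraries).

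Promoters were available for 50 members in RefSeq, as 250 bases before to 50 after the gene start on build GRCm38.p6. The octamer ATTTGCAT, known from H2B promoters as a site of the POU factor OCT1, was searched on both strands and found in 11 of 50 members (22%), against 1.74% of 32851 promoters of the same length. It was in 7 of 14 H2A and 4 of 11 H2B promoters, and in none of those of H1, H3 and H4. The letters TATAAA, on either strand, were in 64.0% of the members' promoters and 13.6% of all, and CCAAT, on either strand, in 82.0% and 37.4%. CCAAT was in all H1, H2A, H2B and H3 promoters and in 3 of 12 of H4. A match is a description of the letters in this window. Several H2A and H2B genes lie head to head, so that 1 stretch serves both. The 2 such stretches that hold the octamer in both windows are shown, 5′ to 3′ on the minus strand as read for the H2A gene, with the octamer in capitals.
Hist1h2ae and Hist1h2bg, chr13:23571301-23571388, minus strand: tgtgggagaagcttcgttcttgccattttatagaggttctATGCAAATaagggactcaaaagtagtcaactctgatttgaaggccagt
Hist1h2ah and Hist1h2bk, chr13:22035751-22035838, minus strand: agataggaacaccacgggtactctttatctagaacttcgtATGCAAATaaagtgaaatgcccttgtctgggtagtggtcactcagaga

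Both genes of each pair rose in both kinds, beside 35 of 54 members and 10.7% of 10668 genes. Whether members with the octamer differ from the other members was not tested. Of the other members with the octamer, *Hist1h2ab* and *Hist1h2ac* rose in both, the RPF call of *Hist1h2ab* being lost in DESeq2 (adjusted p = 0.085). *Hist1h2bb*, *Hist2h2ac* and *Hist2h2bb* passed the threshold in neither kind in edgeR. *Hist3h2a* rose in total RNA and was not tested in RPF. *Hist1h2aa* was not tested in total RNA and did not pass in RPF. *Hist1h2ae* and *Hist1h2bg* had log2 fold changes of 1.10 and 0.77 in total RNA and 1.28 and 0.86 in RPF. *Hist1h2ah* and *Hist1h2bk* had 1.54 and 1.16 in total RNA and 1.71 and 1.49 in RPF. *Hist1h2bk* had 36.6, 62.3 and 34.4 CPM in control and 107, 90.5 and 101 in *Rnmt* cKO in total RNA, without overlap.

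Other histone genes and the genes that act on histone mRNAs were split between rises and falls. Their counts stand beside 26.3% of all genes that rose and 28.0% that fell in total RNA, and 14.1% and 15.7% in RPF. Among 9 replication-independent histones tested in total RNA, whose mRNAs are polyadenylated and made outside S phase as well, 3 rose and 2 fell, with a median log2 fold change of 0.05. The linker histone *H1f0* rose the most (10.1, 11.6 and 11.4 CPM in control and 25.8, 23.7 and 31.7 in *Rnmt* cKO; log2 fold change 1.30, SE 0.13, adjusted p = 0.00011, edgeR). *H3f3a*, which encodes H3.3, fell (76.5, 78.9 and 67.2 CPM in control and 48.8, 52.5 and 60.5 in *Rnmt* cKO; log2 fold change -0.46, SE 0.10, adjusted p = 0.0049, edgeR), whereas *H3f3b*, which encodes the same protein, rose by 0.23 on the log2 scale (adjusted p = 0.018, edgeR), a call lost without control replicate 1 (0.19, adjusted p = 0.086) and control replicate 3 (0.21, adjusted p = 0.052) and with the replicate block (0.23, adjusted p = 0.057). *H2afx*, which encodes H2A.X and can also make a stem-loop transcript, had a log2 fold change of 0.38 (95% interval -0.03 to 0.78) and *H2afz* one of -0.22 (95% interval -0.42 to -0.01). In RPF 2 of 9 rose, with a median of 0.33.

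Among 16 genes tested for histone mRNA transcription, processing and decay, 5 rose and 5 fell in total RNA (median -0.04), shares near those of all genes. *Slbp*, which encodes the stem-loop binding protein, had 269.9, 304 and 247 CPM in control and 230.3, 204 and 226 in *Rnmt* cKO in total RNA (log2 fold change -0.31, SE 0.09, adjusted p = 0.016, edgeR). All its *Rnmt* cKO libraries were below all controls. In RPF it had 366, 346 and 314 CPM in control and 307, 283 and 259 in *Rnmt* cKO (log2 fold change -0.27, SE 0.08, adjusted p = 0.039, edgeR). The RPF call was lost with the edgeR exact test (adjusted p = 0.053), without TMM (0.073) and without control replicate 1 (0.11), control replicate 2 (0.081), *Rnmt* cKO replicate 2 (0.096) or *Rnmt* cKO replicate 3 (0.11), and the call in total RNA was lost without *Rnmt* cKO replicate 2 (0.053) and with the replicate block (0.053). *Npat*, a coactivator of histone genes, had a log2 fold change of 0.19 (95% interval 0.01 to 0.36) in total RNA and fell in RPF by 0.23 on the log2 scale (adjusted p = 0.04, edgeR) and in TE by 0.41 (adjusted p = 0.027). Its RPF call was lost in DESeq2 (adjusted p = 0.11), with the edgeR exact test (0.099), without TMM (0.069) and without any library but control replicate 3 (0.075 to 0.098), and its TE call without control replicate 1, control replicate 2, *Rnmt* cKO replicate 1 or *Rnmt* cKO replicate 2 (0.067 to 0.14). *Upf1*, which acts in histone mRNA decay, rose the most (0.56) and *Cpsf2*, a subunit of the complex that cuts histone pre-mRNA, fell the most (-0.66). In RPF 5 of these genes fell and 2 rose, with a median of -0.11. In TE 4 of 16, *Npat* among them, fell and 0 rose, beside 6.55% and 3.22% of all genes. At an unadjusted p under 0.05, 5 fell and 1 rose in TE (edgeR).

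Histone chaperones, which carry histones to DNA, had a median of -0.02 in total RNA, with 4 of 18 rising and 2 falling, and of -0.11 in RPF, where 4 fell and 0 rose in edgeR and 5 fell and 0 rose in DESeq2, and 0 rose at an unadjusted p under 0.05. Among all genes 26.3% rose and 28.0% fell in total RNA, and 14.1% rose and 15.7% fell in RPF. The counts of this list that rose in total RNA and fell in RPF were near these shares. *Ipo4*, an importin that carries histones, rose the most in total RNA (0.63) and had -0.33 in RPF (adjusted p = 0.0044, edgeR). *Asf1b* fell the most (-0.37, adjusted p = 0.042, edgeR), a call lost without TMM (adjusted p = 0.055) and without control replicate 1, control replicate 2, *Rnmt* cKO replicate 1 or *Rnmt* cKO replicate 2 (0.078 to 0.14), with TMM over protein-coding genes alone (0.051) and with the replicate block (0.098).

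Replication-dependent histones are made in S phase. Of 36 genes for DNA replication and nucleotide supply, 12 fell and 1 rose in total RNA (median -0.13), beside 28.0% and 26.3% of all genes, so that the count of falls was near that of all genes. In RPF 16 fell and 1 rose (median -0.20), beside 15.7% and 14.1%. *Rfc2*, a clamp loader subunit, fell the most in total RNA (177, 179.7 and 159 CPM in control and 98.4, 88.9 and 100.4 in *Rnmt* cKO; log2 fold change -0.84, SE 0.07, adjusted p = 6.2e-05, edgeR). *Rrm2*, a subunit of ribonucleotide reductase, was the gene that rose in total RNA (105, 142 and 109 CPM in control and 199.6, 185 and 151 in *Rnmt* cKO; log2 fold change 0.59, SE 0.14, adjusted p = 0.0081, edgeR). In RPF it had 226, 259 and 206 CPM in control and 204, 199 and 169 in *Rnmt* cKO, with all *Rnmt* cKO libraries below all controls (log2 fold change -0.27, SE 0.10, adjusted p = 0.08, edgeR), and its TE fell (log2 fold change -0.85, SE 0.19, adjusted p = 0.013, edgeR), a call lost without control replicate 1 (-0.79, adjusted p = 0.068). The gene that rose in RPF was *Cdc45*, which acts in the replicative helicase (log2 fold change 0.21, SE 0.07, adjusted p = 0.044, edgeR). Of 11 cyclins, kinases and regulators of the step from G1 to S tested, 4 rose and 1 fell in total RNA (median 0.16), with *Ccnd2* (0.97) and *Cdk2* (-0.20) at the ends among those past the threshold. In RPF 5 of 11 rose (median 0.29), beside 14.1% of all genes, and 0 fell in edgeR, at an unadjusted p under 0.05 and in DESeq2. The call of *Cdk2* was lost without control replicate 1 (adjusted p = 0.053) and without *Rnmt* cKO replicate 1 (adjusted p = 0.052), with a log2 fold change of -0.19 in both (edgeR).

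Of 16 genes of G2 and M phase, 4 rose and 0 fell in total RNA in edgeR (0 fell at an unadjusted p under 0.05 and in DESeq2), with a median of 0.32. Among all genes 26.3% rose, which is near the share of this list, and 28.0% fell. *Plk1* rose the most (0.89), a call lost without control replicate 1 (0.75, adjusted p = 0.056, edgeR). The summed level of this list, led by *Top2a*, was 867, 1214 and 866 CPM in control and 1279, 1154 and 1083 in *Rnmt* cKO. Control replicate 2, the control with the most histone counts, was thus also the highest control here. Without this library 51 members rose in total RNA and 44 in RPF, counts that have no share of all genes from those fits beside them. In RPF the list summed to 1232, 1716 and 1228 CPM in control and 1699, 1574 and 1382 in *Rnmt* cKO. There 1 of 16 rose and 0 fell in edgeR (median 0.28), beside 14.1% and 15.7% of all genes, and DESeq2 called 2 rises. The part of these cell cycle genes in the histone values was not tested.

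**Figure D3:**
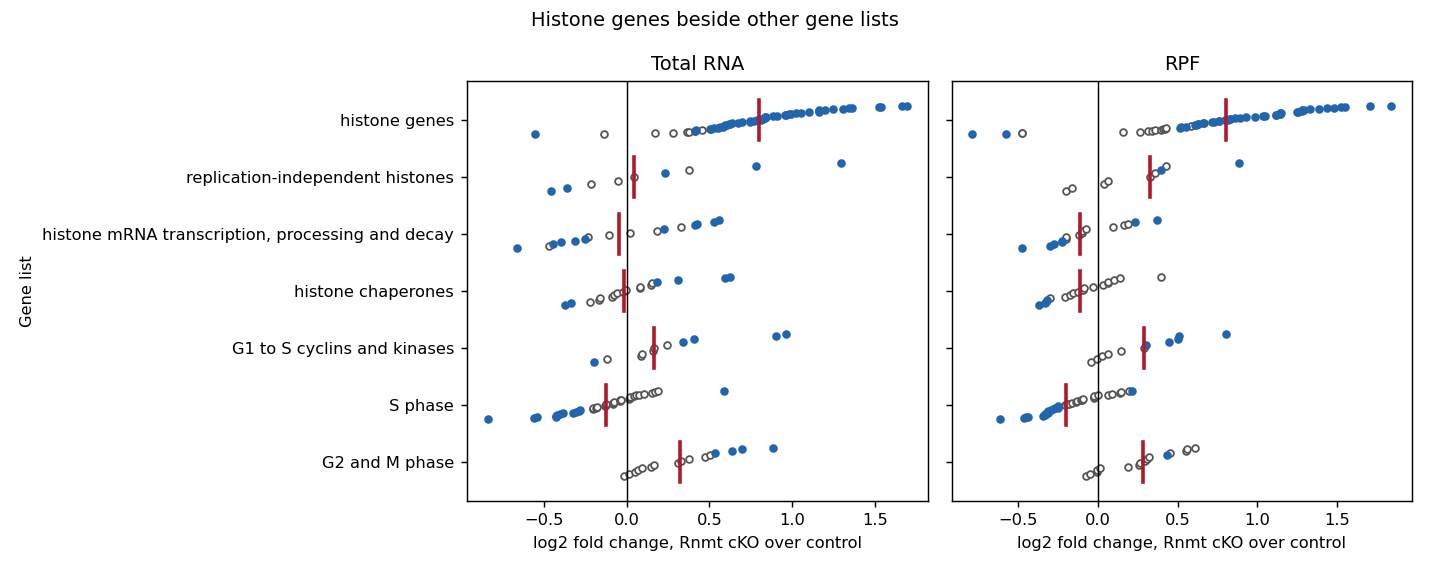
Log2 fold change of *Rnmt* cKO over control (x axis) of every gene tested in the histone genes and in 6 other lists (y axis), in total RNA (left) and RPF (right); filled points passed an adjusted p of 0.05 and red lines are medians. The median of the histone genes was 0.80 in total RNA and 0.81 in RPF, and that of S phase genes -0.13 and -0.20.

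Markers of other cells also differed between genotypes. The counts of these lists stand beside 26.3% of all genes that rose and 28.0% that fell in total RNA, and 14.1% that rose in RPF. Of 6 B cell markers tested in total RNA 3 rose and 1 fell (median 1.89), and their summed level, led by *Ighm*, was 314.5, 304.6 and 348 CPM in control and 431, 404 and 237 in *Rnmt* cKO. In RPF, where 3 of 7 tested rose, they summed to 183, 174 and 334 CPM in control and 718, 811 and 213 in *Rnmt* cKO. *Rnmt* cKO replicates 1 and 2 were thus above all controls in both kinds, and replicate 3 was below all controls in total RNA and within their range in RPF. The part of these markers in the histone values was not tested. Of the markers past the threshold *Ms4a1* rose the most (2.18), a call lost in DESeq2 (adjusted p = 0.060), with the replicate block (0.13) and without control replicate 1, control replicate 2, *Rnmt* cKO replicate 1 or *Rnmt* cKO replicate 2 (1.73 to 2.01, adjusted p = 0.10 to 0.14, edgeR), and *Ighm* fell (-0.44).

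Of 5 NK cell markers 3 were tested and rose (median 1.43), led by *Eomes* (2.44, 3.01 and 3.23 CPM in control and 20.1, 35.6 and 20.4 in *Rnmt* cKO), and *Klrb1c* and *Ncr1* were under 1 CPM in every total RNA library. The list summed to 5.19, 8.14 and 8.07 CPM in control and 32.7, 45.4 and 32.0 in *Rnmt* cKO in total RNA, and to 17.1, 14.9 and 26.3 CPM in control and 94.0, 115 and 96.0 in *Rnmt* cKO in RPF. The part of these markers was not tested either. Of 7 myeloid markers 6 were under 1 CPM in all 12 libraries. *Cd8a* and *Cd8b1* summed to 21.4, 21.3 and 41.6 CPM in control and 26.4, 21.3 and 9.83 in *Rnmt* cKO and did not pass the threshold, and of 2 regulatory T cell markers tested *Ikzf2* rose (1.12). The other, *Ctla4*, had 170.0, 162 and 135 CPM in control and 119, 74.5 and 134 in *Rnmt* cKO, with all *Rnmt* cKO libraries below all controls (log2 fold change -0.51, SE 0.20, adjusted p = 0.059, edgeR), and DESeq2 called it down. Among 9 CD4 T cell markers 4 fell and 2 rose in total RNA, beside 28.0% and 26.3% of all genes, with *Cd3g* (-1.23) and *Cd69* (0.85) at the ends.

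Shares of reads outside the counted genes differed as well. Reads that aligned in several places made up 28.7 to 30.1% of the control and 24.3 to 27.3% of the *Rnmt* cKO libraries of total RNA, and reads on no gene 5.34 to 6.0% and 7.24 to 8.21%. In RPF reads that aligned in several places were 22.9 to 25.4% and 23.5 to 31.0%. The part of these shares in the histone values was not tested. Counts on the opposite strand of the members were between 21 and 95 in any library, against 46497 to 174464 on their own strand.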

How the data were processed

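Total cytoplasmic RNA and RPF of activated CD4 T cells were each sequenced from 3 control and 3 *Rnmt* cKO samples with a ribosome profiling kit. Only read 2 was used by the authors, as read 1 failed. Adapters were trimmed (Cutadapt), rRNA and tRNA reads were taken out (Bowtie), and the rest were aligned to mm10 with GENCODE vM12 in STAR 2.5.2b. They deposited counts of uniquely aligned reads per gene without normalization. Counts on the reverse strand were used here. A deposited series table with scaled values, fold changes and p-values was not used, including its 12 columns of per-sample values.

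Symbols, positions and transcripts came from GENCODE vM21 and promoters from RefSeq (GRCm38.p6). Genes that exceeded a CPM of 1 in 3 or more of the 6 libraries were fitted with TMM and the quasi-likelihood test of edgeR 4.0.16 in R 4.3.3. TE was the interaction of genotype and kind over 12 libraries. Adjusted p-values are Benjamini-Hochberg values over all genes tested, with a threshold of 0.05. RiboDiff was not used here. DESeq2 1.42.0, limma 3.58.1, Python 3.11.15, pandas 2.3.3, numpy 2.4.6, Biopython 1.88 and matplotlib 3.10.9 served alternatives, sequences and figures. Fits were tested on simulated data. P-values measure the spread between these samples, which the labels do not tie to separate mice.

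Of reads in each library 7.48 to 33.6% were unmapped and 22.9 to 31.0% aligned in several places, and these, with reads on no gene or on several genes, were left out of library sizes. The deviations of total RNA and RPF libraries with the same number correlated in each of 6 pairs (r = 0.11 to 0.37 over genes), so that TE was also fitted with the animal as a block.

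The members, lists and tests were chosen with earlier results of these data known. The genes named are *Rnmt*, the 3 members of each family with the highest CPM in total RNA, the 3 largest rises and falls of members past the threshold in each comparison, members at the edge of the count rule, *Slbp*, *Npat*, *H2afz*, *H3f3a*, *H3f3b*, *H2afx* and the largest rise and fall past the threshold of each list in total RNA. Other genes were chosen after their values were seen, among them *Hist2h2be*, *Hist2h3b*, *Hist4h4*, *Hist1h1a*, *Hist1h1b*, *Hist1h4m*, *Hist1h4n*, *Hist3h2a*, *Hist2h3c2*, *Hist2h4*, *Hist1h2bp*, *Hist1h2bc*, *Hist1h2ae*, *Hist1h2bg*, *Hist1h2bk*, *Cdc45*, *Ctla4*, *Cd4*, *Cd3e*, *Cd28*, *Klrb1c*, *Ncr1*, *Cd8a* and *Cd8b1*. Alternatives were library size without TMM, TMM over protein-coding genes, DESeq2, the edgeR exact test, a minimum of 10 counts in every library, no filter, counts of both strands, each replicate left out, and blocks of replicate and animal. The result of 1 gene is not reported here.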

Additional observations from a re-analysis of the deposited data

How the results depend on the processing

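In total RNA every alternative called 1 member down and 34 to 53 up, against 45, and the median log2 fold change lay between 0.67 and 1.03. In RPF 30 to 47 members were called up, against 37, and the count of members that fell, 2, was 1 with DESeq2, 4 without a filter on low counts, 3 with the counts of both strands and 1 to 2 with replicates left out; the median was 0.70 to 1.06 with replicates left out. In TE the count that fell, 1, was 2 with DESeq2 and 1 to 2 with replicates left out, and the count that rose, 0, was 1 with DESeq2 and 1 with the counts of both strands. The share of all genes called is not given for these alternatives, so that the counts cannot be set beside it. The cause of these differences was not tested. The log2 ratio of the summed histone shares was 0.62 to 0.91 in total RNA with replicates left out, and 0.57 to 0.94 in RPF. The members called in total RNA and RPF kept their sign under each scaling. Over the repeats of the tests in which they were called, the genes named by rule kept their sign and call in 931 and fell short of the threshold in 90, with none reversed. Tests in which they were not called are left out of this count, and some passed the threshold under an alternative, among them *Hist2h2ac* and *Hist2h2bb* in total RNA and RPF in DESeq2 and *Hist1h1c* in RPF with the replicate block.

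Same-numbered samples of the 2 genotypes did not deviate together (r = -0.53 to -0.23 in total RNA and -0.07 to 0.14 in RPF). Samples of different number had r = -0.205 to 0.378 in total RNA and -0.127 to 0.14 in RPF. Whether samples of the 2 genotypes share a batch was not tested. With a replicate block 38 members rose and 1 fell in total RNA, 39 rose and 1 fell in RPF, and 1 fell in TE. With the animal as a block, 2 members fell and 3 rose in TE. The counts with either block have no share of all genes from their fits beside them.

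Members with few counts in their particular stretches limit the precision, and the smallest RPF library held 4123271 counts. Reads that fit several histone genes were not counted, so that a change in one gene cannot be seen where its sequence is that of another.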
